A study of Homo sapiens with 2 samples.

Results

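The IFIT genes encode cytosolic antiviral proteins built of tetratricopeptide repeats, and 4 of them, IFIT1, IFIT2, IFIT3 and IFIT5, were examined in 2 human gastric cancer cell lines. The lines were MKN45P, a highly metastatic line derived from MKN45, and MKN45 itself, the parental line. Both were grown in RPMI 1640 with 10% FBS, glutamine, penicillin and streptomycin, harvested with trypsin-EDTA and read as total RNA of the cell lysate on 1 exon array each. The labels name no interferon, virus or other agent given to either line, and they do not say how MKN45P was derived or whether it is 1 clone. The genes were chosen by their measured excess in MKN45P on these same 2 arrays, so that their differences are a description and no test was made. They were read at 29 probesets (small groups of probes, placed by exon), all those whose annotation gives exactly 1 of the 4 symbols, out of 286871 probesets with exactly 1 symbol and 877986 probesets in all. Every member gene passed the filter for a measured gene, at least 4 probesets and a median level of at least 1.92, as did 13130 genes in all.

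IFIT proteins bind foreign RNA: IFIT1 recognises capped RNA that lacks methylation at the first ribose, IFIT5 binds RNA with a 5′ triphosphate, and IFIT2 and IFIT3 assemble with IFIT1 into complexes, in which IFIT3 stabilises IFIT1. Their genes lie together on chromosome 10. Type I and type III interferons induce them through ISGF3, a complex that includes STAT2 and IRF9 and binds the interferon-stimulated response element (ISRE) of their promoters, and IRF3, activated by sensors of viral RNA, can induce them directly. In epithelial cells that meet no virus and no interferon their RNA is usually scarce.

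IFIT3, IFIT1 and IFIT5 were higher in MKN45P than in MKN45, and IFIT2 was higher by less than 2-fold over all its probesets. In MKN45 no probeset of IFIT1, IFIT2 or IFIT3 exceeded 2.28, while those of IFIT5 reached 3.88. The gene difference, taken as MKN45P minus MKN45 in log2 units at each probeset and then as the median over the gene's probesets, was 6.07 for IFIT3, 4.76 for IFIT1, 2.25 for IFIT5 and 0.73 for IFIT2. Thus 3 of the 4 genes were at least 2-fold higher in MKN45P, beside 4.58% of the 13130 measured genes, and the same 3 genes were at least 4-fold higher, beside 0.762%. None of the 4 was 2-fold lower, beside 1.20% of measured genes. With the mean of the probeset differences, or with only the probesets that have signal, all 4 were at least 2-fold higher, where the share of all measured genes was 4.91% by the mean and 11.4% with signal. For IFIT2 the outcome with signal was set by the filter described below, which takes the mean of both arrays. No IFIT2 probeset exceeded 2.11 in MKN45, so any of them passes only where MKN45P is more than 2-fold higher. Since each line was read on 1 array, the error of a difference between cultures is unknown. The ranges printed here are between probesets of the same arrays. A larger amount in every MKN45P cell and a very large amount in some of them cannot be told apart.

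The promoters of the genes are shown because the members are known targets of 1 shared DNA element. RefSeq promoter windows (build GRCh38.p14, 250 bases before to 50 after an annotated start, 300 bases) matched IFIT1, IFIT3 and IFIT5, thus 3 of the 4 members, with 2 starts for IFIT3, and also IFIT1B, a relative in the same cluster. The core of the ISRE was searched as GAAANNGAAA on both strands. The lines below give 160 bases before the start and the 10 bases from the start on, 5′ to 3′ on the plus strand, with capitals for matches to the core, all of them on the minus strand.
IFIT3, upstream start, chr10:89327837-89328006: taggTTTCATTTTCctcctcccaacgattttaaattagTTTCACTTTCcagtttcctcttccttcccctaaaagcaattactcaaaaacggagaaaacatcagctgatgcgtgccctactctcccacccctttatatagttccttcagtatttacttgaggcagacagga
IFIT3, downstream start, chr10:89332369-89332538: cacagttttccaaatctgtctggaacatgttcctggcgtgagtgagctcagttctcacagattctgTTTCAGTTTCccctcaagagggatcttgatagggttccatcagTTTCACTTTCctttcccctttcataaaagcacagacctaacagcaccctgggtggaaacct
IFIT1, chr10:89392463-89392632: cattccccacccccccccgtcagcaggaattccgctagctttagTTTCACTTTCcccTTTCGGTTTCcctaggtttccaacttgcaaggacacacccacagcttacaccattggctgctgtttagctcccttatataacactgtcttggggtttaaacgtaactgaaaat
IFIT5, chr10:89414408-89414577: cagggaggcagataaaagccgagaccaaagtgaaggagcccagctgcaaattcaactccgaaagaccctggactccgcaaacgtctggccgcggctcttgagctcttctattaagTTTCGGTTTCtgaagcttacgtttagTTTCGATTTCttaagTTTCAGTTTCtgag
IFIT1B, chr10:89377896-89378065: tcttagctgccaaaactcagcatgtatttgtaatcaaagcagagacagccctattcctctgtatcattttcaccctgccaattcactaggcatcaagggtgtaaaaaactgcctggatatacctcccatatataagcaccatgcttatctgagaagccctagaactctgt

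Each of the 4 member windows held 2 or more matches, 9 in all, and no match overlapped another. IFIT1 had 2, beginning 116 and 103 bases before the start. The upstream start of IFIT3 had 2, beginning 156 and 122 bases before it, and the downstream start had 2, beginning 94 and 51 bases before it. IFIT5 had 3, at 45, 19 and 4 bases before the start, the last of them running across the start itself. The window of IFIT1B held none. Of 35116 RefSeq promoter windows 3.57% held a match, 0.259% held 2 or more and 13 windows (0.037%) held 3 or more. A second element, the gamma-activated site (GAS), was searched as TTCNNNGAA on both strands. It was in none of the 5 windows and in 7.66% of all windows. A match is a run of letters and was not tested for binding, and its absence says only that these letters are not in the window.

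**Figure D1:**
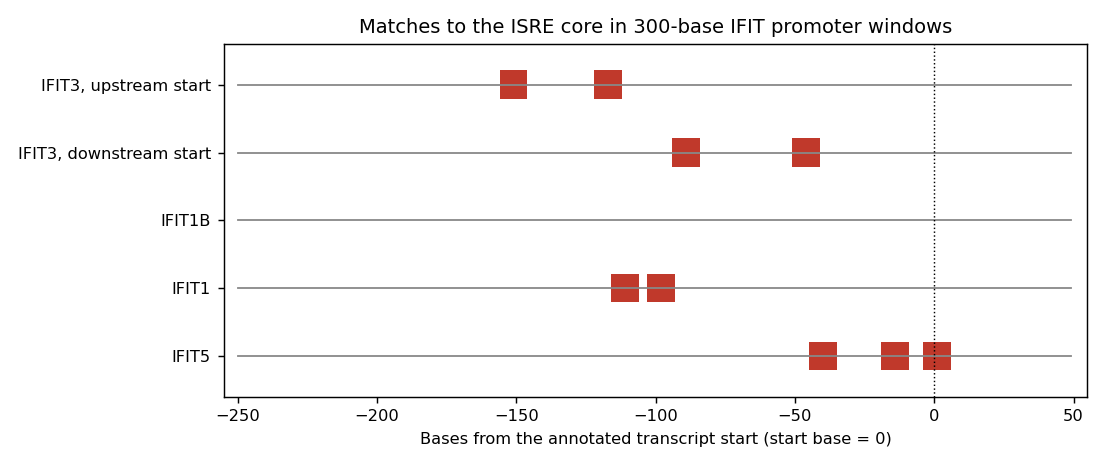
Positions of matches to GAAANNGAAA on either strand (boxes) in 5 promoter windows of 300 bases; the x axis is the distance in bases from the annotated transcript start, which is 0. The IFIT1, IFIT3 and IFIT5 windows hold 2 or 3 matches each and the IFIT1B window none.

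IFIT1 had 10 probesets, the most of the 4 genes, and 8 of them differed strongly. In order of probeset number the values in MKN45P were 1.83, 5.52, 6.93, 9.17, 8.52, 5.89, 9.28, 7.49, 4.24 and 1.85, against 1.75, 1.66, 1.61, 2.28, 2.10, 1.68, 1.97, 1.60, 1.63 and 1.66 in MKN45. All 10 were higher in MKN45P, and the parental values spanned only 1.60 to 2.28, so that nearly all of the variation among probesets lay in MKN45P. The largest difference was 7.31, a 159-fold ratio on the array's scale, at probeset 3257255, which ranked 13 among all 877986 probesets, and probeset 3257252 followed with 6.89. The 2 outermost probesets by number, 3257247 and 3257259, differed by 0.08 and 0.19 and had values near the low end in both lines. The gene difference of 4.76 (27.1-fold; interquartile range over probesets 2.92 to 6.29) was therefore below the median of the 8 probesets with signal, 5.60 (48.6-fold).

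A probeset counted as having signal when the mean of both arrays was at least 2.77, the 75th percentile over all probesets. Of the 29 member probesets 18 had signal and 11 did not. The member just inside that limit, probeset 3257277 of IFIT5, had a level of 2.83, and the one just outside it, probeset 3257197 of IFIT2, had 2.68. Because the mean of both arrays is used, a probeset at the low end in MKN45 passes only where MKN45P is high, and for such probesets a difference follows from the filter. Taken line by line, 22 of the 29 probesets were at or above 2.77 in MKN45P and 2 in MKN45, both of the 2 in IFIT5. Over all probesets the 75th percentile was 2.73 in MKN45P and 2.80 in MKN45, near that limit in both lines.

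IFIT3, the partner that stabilises IFIT1, had the largest gene difference of the family and ranked 2 among the 13130 measured genes. Its 5 probesets had values of 1.65, 3.05, 8.76, 8.11 and 7.97 in MKN45P, against 1.72, 1.66, 1.92, 1.78 and 1.89 in MKN45. The 3 highest probesets by number, 3257213, 3257214 and 3257215, differed by 6.83, 6.33 and 6.07, at least 67.3-fold each, while 3257210 differed by 1.39 and 3257208 by -0.06. The gene difference of 6.07 rested on these few probesets, and its interquartile range was wide, 1.39 to 6.33. The median over the 3 probesets with signal was 6.33 (80.6-fold). Probesets of IFIT1 and IFIT3 made up 7 of the 100 probesets with the largest excess in MKN45P, 4 from IFIT1 and 3 from IFIT3.

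IFIT5 was the only member with probesets at or above 2.77 in the parental line. Its 6 probesets had values of 2.92, 4.39, 7.16, 3.86, 3.08 and 6.98 in MKN45P, against 2.99, 1.94, 3.88, 1.80, 1.79 and 2.69 in MKN45. Probeset 3257280 differed by 4.29 (19.5-fold) and 3257276 by 3.28 (9.71-fold). At 3257276 MKN45 itself had 3.88, so that this difference was taken from a parental value above the low end. Probeset 3257269 was alike in both lines, with a difference of -0.07, and was the 1 member probeset with signal that was not 2-fold higher. The gene difference was 2.25 (4.77-fold; interquartile range 1.47 to 3.07), which ranked 72 among measured genes.

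IFIT2, which binds AU-rich RNA and has been linked to apoptosis, had the smallest gene difference of the family and few probesets above the low end. Its 8 probesets had values of 2.60, 1.90, 4.50, 3.57, 4.89, 2.89, 2.13 and 1.74 in MKN45P, against 2.11, 1.76, 1.86, 1.78, 1.66, 1.92, 1.67 and 1.70 in MKN45. Every 1 of the 8 was higher in MKN45P, 3 of them by 2-fold or more. The differences at 3257198, 3257196 and 3257197 were 3.22, 2.64 and 1.79, and the other 5 ran from 0.04 to 0.98. The gene difference of 0.73 (interquartile range 0.376 to 2.001) ranked 1165 among measured genes. Over the 2 probesets with signal it was 2.93 (7.63-fold), and over the probesets whose higher array reached 2.77 it was 2.21, so the value for IFIT2 depends on which probesets are taken.

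**Figure D2:**
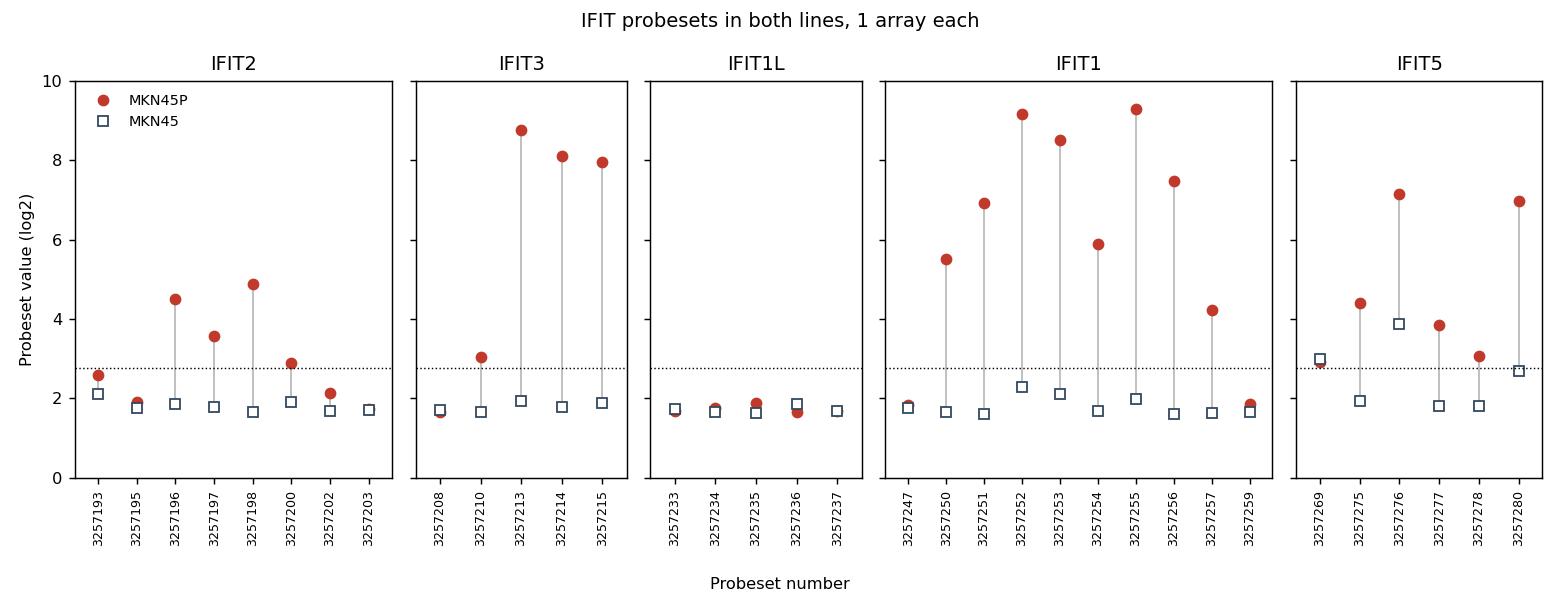
Log2 value of every probeset of IFIT2, IFIT3, IFIT1L, IFIT1 and IFIT5 in MKN45P (filled circles) and MKN45 (open squares), 1 array each, in order of probeset number; grey lines join both values and the dotted line is the signal limit of 2.77. MKN45 lies between 1.60 and 2.28 at every IFIT1 probeset while MKN45P reaches 9.28, and IFIT1L is low in both lines.

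Over the family, 27 of the 29 probesets were higher in MKN45P, 20 of them by 2-fold or more, and none was 2-fold lower, where 8.82% of all probesets with 1 symbol were 2-fold higher. Of the 18 with signal 17 were at least 2-fold higher, beside 17.0% of all such probesets. The median difference was 2.61 over the 29 member probesets and 4.25 over the 18 with signal, against 0.02 over all probesets with 1 symbol and 0.10 over those with signal. These counts come from the contrast that chose the genes and are given as a description. No probeset of IFIT1, IFIT2 or IFIT3 exceeded 2.28 in MKN45, so these have signal only where MKN45P is higher. The count and the median over probesets with signal therefore follow in part from the filter. Among the 11 without signal 3 were 2-fold higher, 1 each in IFIT2, IFIT3 and IFIT5. The share over all probesets without signal was not computed.

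The members did not differ from each other by the same amount at every probeset. Over probesets with signal the range of differences was 6.07 to 6.83 in IFIT3, 2.61 to 7.31 in IFIT1, -0.07 to 4.29 in IFIT5 and 2.64 to 3.22 in IFIT2. Over these probesets the range of IFIT3 lay above those of IFIT5 and IFIT2 and inside that of IFIT1. That separation follows at least in part from the signal filter, which leaves out the IFIT3 probesets at -0.06 and 1.39. Over all probesets IFIT3 ran from -0.06 to 6.83 and overlapped IFIT2 (0.04 to 3.22) and IFIT5 (-0.07 to 4.29). The order of IFIT5 and IFIT2 changed with the probesets used: by the gene difference IFIT5 was higher, and by the probesets with signal IFIT2 was higher, 2.93 against 2.45 in IFIT5. A probeset's level also depends on how well its probes bind, so levels were not compared between genes, and where the parental value is at the low end a difference understates the change in RNA.

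**Figure D3:**
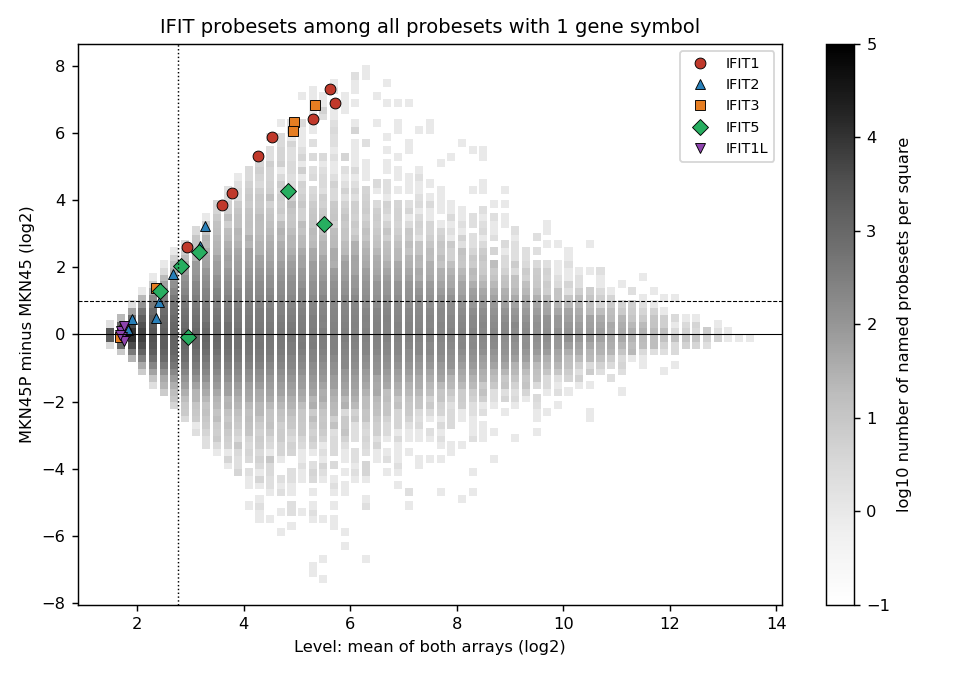
Difference (MKN45P minus MKN45, log2) against level (mean of both arrays, log2) for all probesets with 1 symbol (grey squares, darker where more probesets fall) and for the IFIT probesets (coloured marks); the dashed line marks 2-fold and the dotted line the signal limit of 2.77. The IFIT1 and IFIT3 marks follow the upper left edge of the cloud, where MKN45 is near the low end, and 3 IFIT5 marks lie inside the cloud.

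IFIT1B, listed on the array under its older symbol IFIT1L, lies between IFIT3 and IFIT1 and did not share their difference. Its 5 probesets had values of 1.68, 1.76, 1.88, 1.66 and 1.67 in MKN45P, against 1.74, 1.64, 1.63, 1.85 and 1.68 in MKN45. The differences ran from -0.20 to 0.25 with a median of -0.01, and the gene was below the level filter, so no level could be told from the low end in either line. The IFIT genes have related sequences, and RNA of 1 member may bind probes of another. That was not tested here.

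Between the first and last IFIT probeset by number lay 19 probesets that the annotation used here leaves unnamed, and most of them were flat. Their median difference was 0.09, and they ran from -0.48 to 1.08. In MKN45P 2 of the 19 were past 2-fold upward, beside 0.970% of all unnamed probesets, and 0 were past it downward. Probeset 3257248, numbered just after the first IFIT1 probeset, had 2.72 in MKN45P and 1.65 in MKN45. Probeset 3257274, numbered just before the second IFIT5 probeset, had 3.24 in MKN45P and 2.22 in MKN45.

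The measured genes around the cluster had smaller differences than IFIT1, IFIT3 and IFIT5 over all probesets, and 3 of them, LIPA, ACTA2 and PCGF5, had larger ones than IFIT2. Of the 20 nearest genes with probesets in RefSeq order, 10 on each side, 10 were measured, with a median difference of 0.20 and a range of -1.41 to 1.30; 3 were at least 2-fold higher, beside 4.58% of all measured genes, and 1 was 2-fold lower, beside 1.20%. LIPA, lysosomal acid lipase and the nearest of them before IFIT2, differed by 1.10 (interquartile range 0.53 to 1.35 over 20 probesets). CH25H, an interferon-induced enzyme that makes 25-hydroxycholesterol, differed by -0.11, and the death receptor gene FAS by 0.17 over all its probesets but by 2.85 over 3 with signal, where IFIT5 had 2.45 and IFIT2 2.93. The FAS value with signal may follow in part from the signal filter, since its median value in MKN45 was 2.20. ACTA2, a smooth muscle actin, was higher by 1.23, and ANKRD22 was lower in MKN45P, with a difference of -1.41. After IFIT5 came SLC16A12, below the level filter, then PANK1, a pantothenate kinase (-0.17), the mitotic kinesin KIF20B (0.24), RPP30, a subunit of RNase P (0.45), and PCGF5, a Polycomb protein (1.30). STAMBPL1, a deubiquitinase, differed by 0.05. LIPF, LIPK, LIPN, LIPM, HTR7, ANKRD1, HECTD2, FLJ37201 and NUDT9P1 were not measured, and their differences lay between -0.16 and 0.44. Of 18 neighbours with a promoter window 1, ACTA2, held a match to the ISRE core, a share near the 4.38% of all 27305 gene symbols with a window. Whether that match bears on its difference was not tested.

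**Figure D4:**
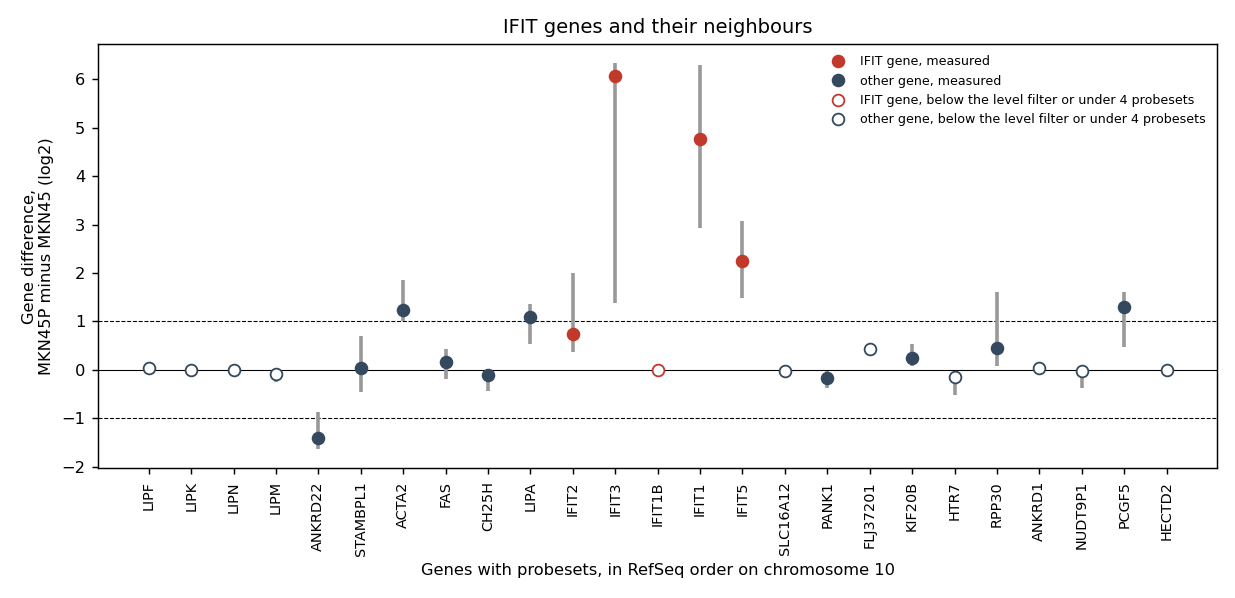
Gene difference (MKN45P minus MKN45, log2) of the IFIT genes (red) and the 10 nearest genes with probesets on each side (dark), in RefSeq order along chromosome 10; bars are the interquartile range over probesets, open circles mark genes that were not measured and dashed lines mark 2-fold. IFIT3 (6.07), IFIT1 (4.76) and IFIT5 (2.25) lie above every neighbour, of which the highest is PCGF5 at 1.30.

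The steps of the interferon pathway that lead to the IFIT genes were described from a list of 42 genes of ligands, receptors, kinases, transcription factors, sensors and negative regulators. Of these 30 were measured. In MKN45P 9 of them were higher by 2-fold or more, beside 4.58% of all measured genes, and no gene was lower by that much, with a median of 0.55 where that of all measured genes was 0.03. No interferon gene of the 10 listed was measured. IFNB1, interferon beta, had median values of 1.70 in MKN45P and 1.69 in MKN45 over 4 probesets, and IFNL1, a type III interferon listed as IL29, had 1.83 in MKN45P and 1.91 in MKN45. Neither could be told from the low end of the scale, which does not show that the RNA was absent.

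Of 8 measured receptors and kinases 1 was 2-fold higher, beside 4.58% of all measured genes, and none was 2-fold lower. IFNAR2, the chain of the type I receptor that binds interferon most tightly, was higher in MKN45P by 1.12 (interquartile range 0.36 to 2.03 over 14 probesets), while IFNAR1 differed by 0.14. IL10RB, a chain of the type III receptor, differed by 0.67, and by 0.98 over probesets with signal. The other chain, IFNLR1, listed on the array as IL28RA, differed by -0.11 over 19 probesets, and by -0.31 over those with signal. JAK1, a kinase of both receptor types, differed by 0.63, with median values of 7.95 in MKN45P and 6.17 in MKN45, and TYK2, its partner, by -0.02. The factors that carry the signal to the ISRE differed more. STAT2 was higher by 3.06 (2.10 to 3.61), at all 27 of its probesets, with median values of 7.76 in MKN45P and 3.87 in MKN45. IRF9, which gives ISGF3 its DNA contact, was higher by 2.30 (0.87 to 3.49 over 15 probesets), IRF1 by 2.15 and IRF7 by 1.03. IRF3, which acts upstream and is regulated by phosphorylation, differed by 0.03.

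Among sensors and adaptors, EIF2AK2, the kinase PKR that halts translation on double-stranded RNA, was higher by 2.85, and DHX58, a regulator of the RNA sensors, by 1.52. TBK1, the kinase that activates IRF3, was just past 2-fold (1.002). DDX58 (RIG-I) and IFIH1 (MDA5), which detect viral RNA in the cytosol, differed by 0.82 and 0.67, and by 2.49 and 1.70 over their 9 and 10 probesets with signal. Their median values in MKN45 were low, 1.80 and 1.82. A probeset that low has signal only where MKN45P is higher, so the larger differences follow at least in part from the filter. MAVS, their adaptor, listed on the array as VISA, differed by 0.32, although its median value was lower in MKN45P (4.87) than in MKN45 (5.08). Of the negative regulators, PTPN6, a phosphatase, was higher by 1.70, and USP18, which blocks IFNAR2 signalling, differed by -0.20 over 4 probesets (interquartile range -0.32 to 0.66). The median values of USP18 had the opposite order, 4.30 in MKN45P and 3.84 in MKN45, so its direction is not settled. SOCS1, an inhibitor of the Janus kinases, differed by -0.26, with median values of 3.01 in MKN45P and 2.99 in MKN45.

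Other interferon-stimulated effector genes were mostly higher, as the IFIT genes were. Of 28 listed 23 were measured, the difference was above 0 in all 23, it reached 2-fold in 16 (beside 4.58% of all measured genes) and 4-fold in 12 (beside 0.762%), and its median was 2.22. The 6 largest were IFITM1 (5.31), OAS2 (5.02), IFI27 (5.01), IFI35 (4.15), XAF1 (4.05) and DDX60 (3.77); IFIT3 was above all 6, and IFIT1 lay between IFI27 and IFI35. Effectors below 2-fold, named after their values were seen, were OAS1 (0.98), IFI44L (0.75), HERC5 (0.34), RSAD2 (0.26), ISG15 (0.25), ISG20 (0.24) and BST2 (0.20). Over probesets with signal IFI44L (3.12), BST2 (2.61), ISG20 (1.80) and OAS1 (1.31) passed 2-fold, as IFIT2 did, whereas RSAD2 (0.64), HERC5 (0.26) and ISG15 (0.25) did not. The filters for measured genes and for signal both use the mean of both arrays. A gene low in MKN45 passes them only where MKN45P is higher, so these signs and counts follow in part from the filters. The 5 effectors not measured differed by 1.49 (IFITM2), 0.31 (SAMD9), 0.18 (GBP1), 0.09 (SAMD9L) and -0.03 (IFITM3). Of these, IFITM2 and IFITM3 had fewer than 4 probesets. ISG15, a ubiquitin-like modifier, had only 4 probesets, and its median values were 4.80 in MKN45P and 3.18 in MKN45. Of 24 effector genes with a promoter window 18 held a match to the ISRE core, RSAD2, HERC5 and ISG15 among them, beside 4.38% of 27305 gene symbols with a window.

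**Figure D5:**
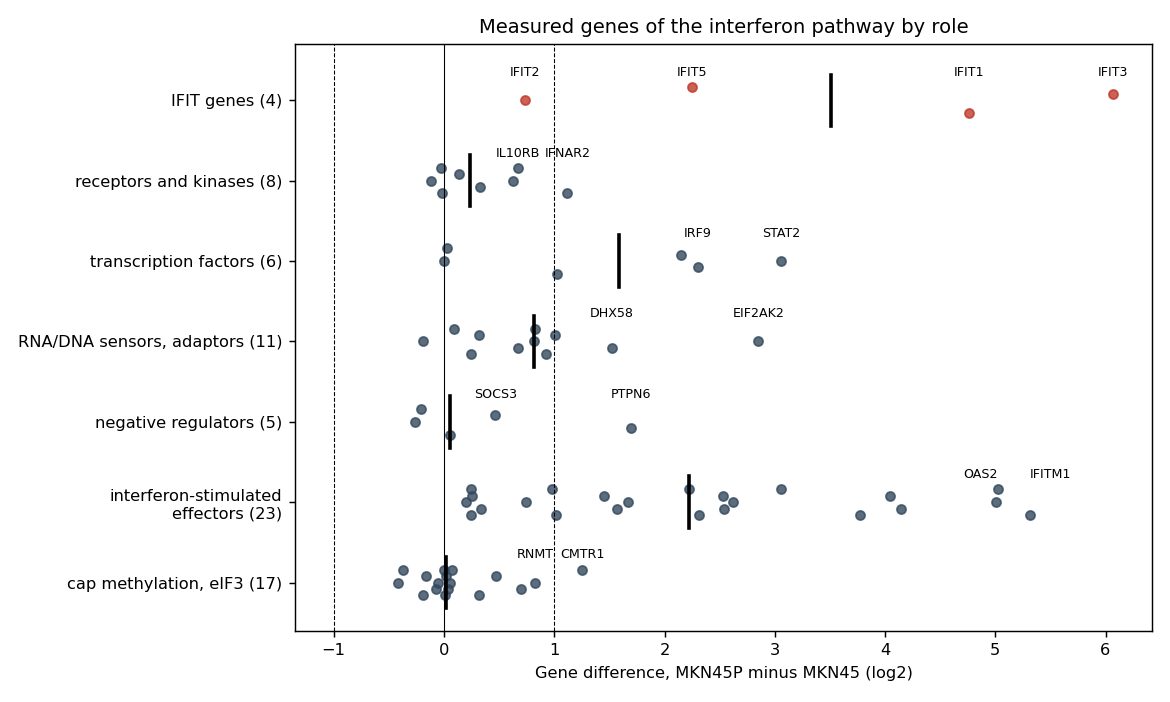
Gene difference (MKN45P minus MKN45, log2) of the 4 IFIT genes (red) and of measured genes of the interferon pathway and of cap methylation and translation factor eIF3 (dark), 1 row per role with its number of genes; short vertical bars are medians, dashed lines mark 2-fold, and the labels name every IFIT gene and the largest differences of the other rows. IFIT2 lies left of 2-fold, and IFIT3 lies right of every other gene drawn.

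The RNA that IFIT1 spares carries methylated caps, and IFIT proteins contact the translation factor eIF3, so genes of both were described. Of 19 listed 17 were measured, and 1 of them, CMTR1, was past 2-fold upward in MKN45P, with no gene past it downward and a median of 0.02. That share is near the 4.58% of all measured genes. CMTR1, the methyltransferase that adds the first ribose methyl group to the cap, was higher by 1.25 (interquartile range 0.97 to 1.58), at 27 of 28 probesets. RNMT, the methyltransferase for the cap guanine, differed by 0.83 and CMTR2, which methylates the second ribose, by 0.04. The eIF3 subunits ran from EIF3D at -0.42 to EIF3M at 0.70.

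With 2 arrays the only pattern a gene can share with the IFIT genes is the size of its difference. The 8 measured genes nearest to the median of the 4 members, 3.51, were UNC5B (3.50), GSDMB (3.40), EEF1A2 (3.36), PRSS8 (3.66), OSMR (3.36), TAP1 (3.68), SLC2A10 (3.76) and DDX60 (3.77). The members themselves differed by 0.73, 2.25, 4.76 and 6.07, so these 8 genes lie between members and not close to any 1 of them. The likeness rests on 1 difference between 2 arrays.

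Of 5 listed markers of epithelial cells 4 were measured and none was past 2-fold. Of all measured genes 4.58% were 2-fold higher and 1.20% were 2-fold lower. CDH1 had median values of 10.74 in MKN45P and 10.26 in MKN45, and EPCAM 7.43 in MKN45P and 6.39 in MKN45. The keratin genes had differences below 0, -0.08 for KRT18 (5.78 in MKN45P and 5.63 in MKN45 by median values), -0.21 for KRT8, whose values were 3.13 in MKN45P and 3.31 in MKN45, and -0.76 for KRT19, which had 2 probesets. Of 8 listed immune markers 4 were measured, none of them 2-fold higher, and PTPRC, the general leukocyte marker, had 1.65 in MKN45P and 1.66 in MKN45. Neither of the 2 markers on the array of plasmacytoid dendritic cells, the strongest interferon producers, was measured. Of 5 fibroblast markers, all measured, FBLN1 was 2-fold higher (1.10) and the other 4 lay between -0.06 and 0.10, and of 3 measured endothelial markers none was past 2-fold. The part of such cells in the IFIT differences was not tested. The distributions of the arrays were close, with medians of 1.91 in MKN45P and 1.93 in MKN45.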

How the data were processed

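The authors deposited 1 value per probeset and array on a log2 scale, as read from the range of the values, and the 2 columns were used as deposited. The submitters' processing notes name Partek and build hg18, with no role or version. How background, probes and arrays were corrected, summarised and normalized is not given in the sources used here. Genes were named by GEO's platform annotation: 286871 probesets had exactly 1 symbol, 3137 had several and were left out, and 587978 were unnamed. Of 18923 symbols 16000 are current in RefSeq (GRCh38.p14), 2815 matched 1 current gene by an older name, 104 matched several and 4 none. That table gave names and gene order only.

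Gene differences are medians of MKN45P minus MKN45 over probesets. Measured genes have 4 or more probesets and a median level not below 1.92, the middle value of all probesets. Level is the mean of both arrays, so a gene low in MKN45 passes only where MKN45P is higher. No test was possible with 1 array per line, and the number of arrays limits the precision. The members and lists were chosen with earlier results of these data known. Named were the members, listed genes past 2-fold (the 6 largest where these were over 12), fixed signalling genes, the nearest neighbours and the 8 genes nearest in difference. Some further listed genes, such as IL10RB, IFNLR1, RNMT and CMTR2, were named outside these rules. Alternatives were other summaries, probeset filters, scalings (quantile, loess with span 0.2 on 20000 points, centring), thresholds and probeset minimums. Calculations used Python 3.11.15, numpy 2.4.6, pandas 2.3.3 and statsmodels 0.14.6, and were tested on simulated data.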

Additional observations from a re-analysis of the deposited data

Results flagged for a closer look

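A difference past 2-fold was seen at 2 probesets that the gene values do not use, because the annotation leaves them unnamed. Their levels, the means of both arrays, were 2.18 and 2.73, below the signal limit of 2.77. Probeset 3257248, numbered among those of IFIT1, was 1.08 higher (log2) in MKN45P, and probeset 3257274, numbered among those of IFIT5, by 1.02. Both are just past 2-fold, there is no replicate, and which transcripts they read is not known here.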

How the results depend on the processing

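In 72 of 81 recomputed values the result moved by less than the spread between probesets (for a difference) or by at most 1.5 times (for a count). This is a loose limit, since the spread (standard deviation) was 3.20 for IFIT3 and 2.62 for IFIT1. IFIT2 counted as unmoved although it rose from 0.73 to 1.22, past 2-fold, with the mean of the probeset differences. Over all alternatives the difference ran from 4.28 to 5.60 for IFIT1, from 4.11 to 6.33 for IFIT3, from 1.81 to 2.45 for IFIT5 and from 0.78 to 2.93 for IFIT2, always with the same sign. IFIT2 moved to 2.93 with only probesets with signal and to 2.21 with only those whose higher array has signal. These filters leave out the probesets that are low in both lines, and with either one 4 of 4 members were 2-fold higher. The share of all measured genes 2-fold higher was 11.4% with only probesets with signal and 10.7% with the filter on the higher array. All IFIT2 probesets were low in MKN45, so they pass either filter only where MKN45P is high. The larger IFIT2 values therefore follow at least in part from the filters. On the cap and eIF3 list 3 of 17 genes were 2-fold higher by the difference between the lines' median levels, beside 9.62% of all measured genes. With either signal filter 2 of 16 were. With the filter on the higher array 5 of 10 measured 10q23 neighbours were. At 4-fold, beside 0.762% of all measured genes, the counts were 0 of 17 for the cap and eIF3 list, 0 of 10 for the neighbours and 4 of 30 for the signalling list. Quantile, loess and centred scaling left 3 members and 17 of 18 probesets with signal past 2-fold. No paired analysis was possible because each line has 1 array. Values near the low end are compressed, and no detection call was used.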
